A study of Rattus norvegicus with 12 samples.

Results

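The 4 oxidoreductase genes of rat liver, AKR1B7, AKR1C21, DHRS7 and ADH6, were followed through the first 24 h after partial hepatectomy (PH). They are 4 of the 14692 genes in the expression table, picked by name because AKR1B7 had been seen to be high, and DHRS7 and ADH6 low, in the columns named BF. Those columns therefore chose the genes, and the values below describe them without testing the choice. AKR1B7 was above Control and BA by more than 2-fold at all 4 times. The other members did not keep one side. AKR1C21 was high in BF at 0 and 4 h and lowest at 12 h. DHRS7 was below both other groups in BF at 12 and 24 h and below Control but not BA at 4 h. ADH6 was low in BF at 0 h and highest there at 4 h. It was low in both BF and Control at 12 h, and in both BF and BA at 24 h.

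RNA was sequenced from whole liver of male Sprague Dawley rats 4 to 5 months old. All animals carried duodenal catheters with a continuous saline infusion and underwent surgery 24 h before PH, with liver taken 0, 4, 12 and 24 h afterwards. Control rats had a sham biliary fistula, a second set had a biliary fistula, and in a further set with a fistula sodium taurocholate, a bile acid, was infused into the duodenum from 12 h before PH. Each of the 12 columns (Control, BA and BF at each time) was combined by the authors from a run on 1 rat and a run on RNA pooled from 3 rats, so that the spread between animals could not be recovered and no column had a replicate. The names of the fistula groups conflict. The sample titled BA is described as a fistula without bile and the sample titled BF as a fistula with bile acid infusion, whereas the study's own usage of these abbreviations is the reverse. Groups are therefore called by their column names. The conflict leaves every value in place and concerns only which treatment stands behind BA and BF. CYP7A1, the rate-limiting enzyme of bile acid synthesis and a gene that bile acids repress, was at 386.93, 13.79, 135.89 and 334.36 RPKM in BF at 0, 4, 12 and 24 h. It was at 60.0, 4.59, 8.53 and 57.3 RPKM in Control and at 54.92, 1.81, 3.17 and 68.83 RPKM in BA. For this gene, which it calls Cyp7a, the paper reports elevated levels in rats drained by a fistula before PH. It also reports that the taurocholate infusion reversed the change.

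Aldo-keto reductases (AKR) are soluble enzymes that use NADPH to reduce aldehydes and ketones of sugars, lipids, steroids and bile acids. Short-chain dehydrogenases (SDR) and the zinc-containing alcohol dehydrogenases (ADH) catalyse related oxidations and reductions of steroids, retinoids and alcohols, and aldehyde dehydrogenases (ALDH) carry aldehydes on to acids. The liver holds many members of each family, among them enzymes that build and modify bile acids. AKR1B7 is an aldose reductase-like protein that reduces aldehydes from lipid peroxidation and is also known from the adrenal cortex and the vas deferens. AKR1C21 is a hydroxysteroid dehydrogenase, DHRS7 is an SDR of the endoplasmic reticulum that can reduce steroids and retinoids, and ADH6 is the class V alcohol dehydrogenase, whose substrate is not well known.

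In RefSeq, AKR1B7 lies beside Akr1b1, Akr1b8 and Akr1b10, and ADH6 lies among Adh7, Adh1c, Adh6a, Adh4 and Adh5. AKR1C21 is an older symbol of rat Akr1c2, in the cluster that holds Akr1c1 and Akr1c13. The symbol DHRS7 belongs to Dhrs7 and was also an older name of its neighbour Dhrs7l1. The table has a single DHRS7 row, so it may stand for either gene, and reads of close copies in these families could have been split or shared between them by the counting. Promoters (250 bases 5′ of the start, RefSeq, GRCr8) are shown for the 3 genes with a single match, with capitals marking AGGTCA, the hexamer bound by many nuclear receptors, or its reverse complement.
Akr1b7, chr4:64043720-64043969, plus strand: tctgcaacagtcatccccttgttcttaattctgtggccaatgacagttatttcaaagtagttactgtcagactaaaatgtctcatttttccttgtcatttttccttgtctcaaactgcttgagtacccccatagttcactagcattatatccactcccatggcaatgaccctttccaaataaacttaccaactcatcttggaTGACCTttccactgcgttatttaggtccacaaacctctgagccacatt
Akr1c2, chr17:70717881-70718130, minus strand: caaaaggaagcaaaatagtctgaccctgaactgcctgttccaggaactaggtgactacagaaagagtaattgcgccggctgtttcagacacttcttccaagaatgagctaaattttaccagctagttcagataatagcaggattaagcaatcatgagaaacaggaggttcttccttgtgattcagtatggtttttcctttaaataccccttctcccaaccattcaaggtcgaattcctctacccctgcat
Adh6, chr2:229576386-229576635, plus strand: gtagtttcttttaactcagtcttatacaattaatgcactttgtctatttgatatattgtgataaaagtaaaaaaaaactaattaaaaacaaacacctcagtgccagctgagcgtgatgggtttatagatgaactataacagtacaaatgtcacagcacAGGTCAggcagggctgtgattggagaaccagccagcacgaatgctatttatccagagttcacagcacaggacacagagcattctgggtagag
The hexamer stood 48 bases before the Akr1b7 start, as the reverse complement, and 92 bases before the Adh6 start, and was not found in the Akr1c2 window or in those of Dhrs7 and Dhrs7l1. It was present on either strand in 16.2% of 33469 promoters. The Akr1b7 and Adh6 windows were low in GC, with 40.4% and 38.8% against a median of 51.2%, and the 2 candidates for DHRS7 differed, with 58.0% for Dhrs7 and 43.2% for Dhrs7l1. Both strands of the 300-base windows (to 50 bases past the start) were also searched for AGGTCA as an inverted repeat spaced by 1 base (in 0.0269% of all promoters) and as a direct repeat spaced by 1 base (0.0538%) or 4 bases (0.00598%), each of which contains the hexamer. The inverted repeat of GTTAAT spaced by 1 base (0.00299%) and TGACNNNGC (12.1%) were searched likewise, and none of these was found in the promoters of the members.

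Before the members, 2 columns stood apart. In BA at 4 h albumin (ALB) took 30.89% of all RPKM, with 303637.48 RPKM against 41049.05 to 99927.86 in the other 11 columns. In BF at 12 h digestive enzymes of pancreatic acinar cells were present: CTRB1 was at 84.71 RPKM and at most 0.57 elsewhere, PRSS1 at 16.55 and at most 0.05, and CPB1 at 11.88 and at most 1.15. Of 10 acinar markers 9 were in the table and 8 were highest there, and their summed level was 139.14 RPKM against 5.37 to 7.7 in the other BF columns, 9.77 to 23.43 in Control and 5.98 to 12.45 in BA. These enzymes' part in the 12 h values was not tested. Hepatocyte markers (8 of 10 found) summed to 109370 to 147290 RPKM in BF and 110680 to 157320 in Control, so the tissue label matched its markers. Of adrenal markers 6 of 10 were found, with CYP11B2 at 0 and CYP11A1 at or below 0.01 RPKM in all columns. Of kidney markers 8 of 9 were found, and UMOD and SLC34A1 did not exceed 0.01 and 0.04 RPKM. Their sum was 82.46 to 215.2 RPKM in BF, 83.77 to 139.35 in Control and 94.43 to 194.91 in BA, made up mainly of SLC22A8 at 57.21 to 196.51 RPKM (highest in BF at 0 h) and MIOX at 13.21 to 41.72 RPKM. The part of the kidney markers in the values at 0 h was not tested.

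AKR1B7 was the member that separated BF most clearly. Its level in BF was 25.84, 38.63, 38.17 and 246.93 RPKM at 0, 4, 12 and 24 h. In Control it was 0.21, 0.55, 1.6 and 63.18 RPKM, and in BA it was 0.95, 5.59, 3.34 and 37.18 RPKM. Every BF column exceeded the Control and BA columns of its own time, although Control at 24 h was higher than BF at 0, 4 and 12 h. On the scale of log2(RPKM + 1), which understates ratios of low values, BF was above Control by 4.47, 4.68, 3.91 and 1.95. Against BA the differences were 3.78, 2.59, 3.17 and 2.70. Among the 8459 genes whose 12 columns averaged 1 RPKM or more, the difference from Control ranked 4, 2, 5 and 10 from the top at the 4 times. As plain ratios where both columns were above 1 RPKM, BF was 23.9 times Control at 12 h and 3.91 times at 24 h, and 6.91, 11.4 and 6.64 times BA at 4, 12 and 24 h. The gap to Control was smallest at 24 h, when all 3 groups were at their highest level. From 0 to 24 h the log2 difference was 5.73 in Control, 4.29 in BA and 3.21 in BF. BA was above Control at 0, 4 and 12 h, by 0.69, 2.09 and 0.74, and below it at 24 h by -0.75.

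**Figure D1:**
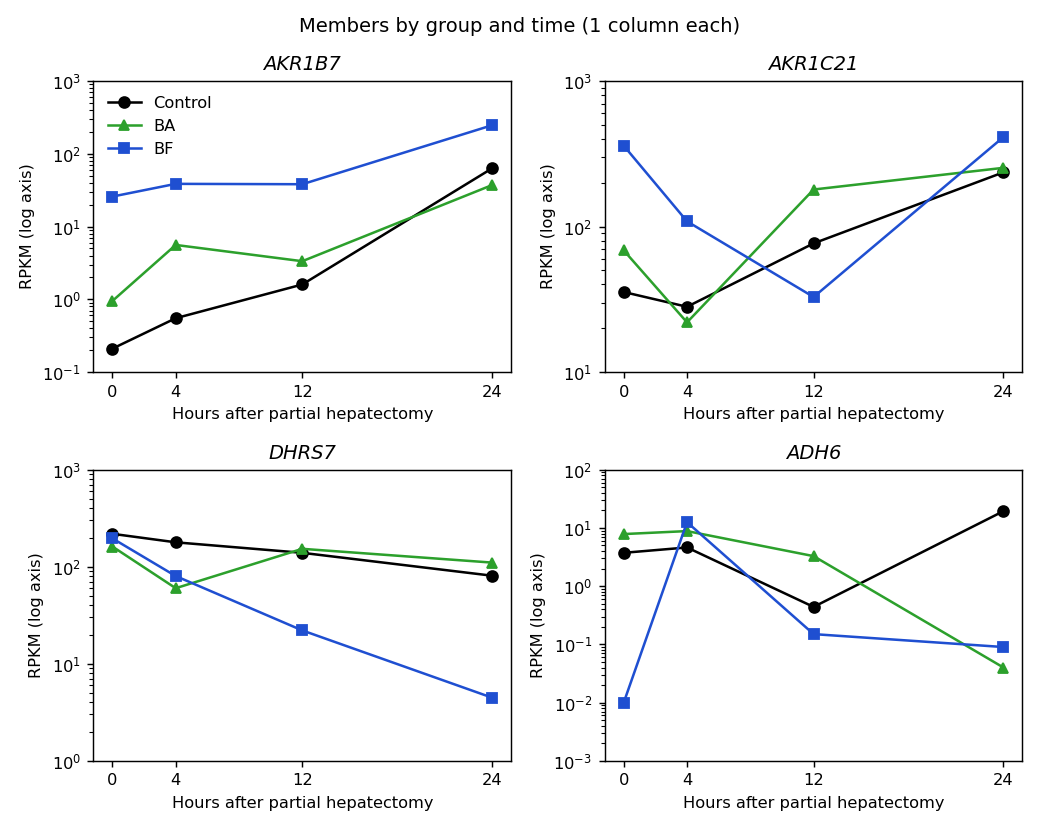
RPKM (log axis) of the 4 genes against hours after PH, with 1 point per column for Control, BA and BF and no error bars, as no column has a replicate. AKR1B7 in BF lay above the other groups throughout, from 25.84 to 246.93 RPKM, DHRS7 in BF dropped to 4.47 RPKM at 24 h, and AKR1C21 and ADH6 crossed between groups.

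The AKR1B family shows how far AKR1B7 set its composition. AKR1B1, aldose reductase of the polyol pathway, was at 3.16 to 6.07 RPKM in all columns, and AKR1B8 and AKR1B10 were low at 0.27 to 2.01 and 0.04 to 0.53 RPKM. AKR1B7 made up 82.8%, 88.2%, 86.4% and 96.7% of the summed RPKM of these 4 genes in BF. In Control its share was 2.99%, 12.0%, 20.2% and 88.2%, and in BA 13.8%, 56.7%, 42.9% and 85.2%. AKR1B7 was the highest of the 4 in every BF column, while AKR1B1 was the highest in Control at 0, 4 and 12 h and in BA at 0 h. In adrenal cortex AKR1B7 is abundant. Adrenal markers summed to 61.64, 38.77, 33.14 and 64.84 RPKM in BF at 0, 4, 12 and 24 h. In Control the sum was 49.88, 33.73, 29.65 and 50.64 RPKM, and in BA 40.55, 28.57, 22.3 and 62.99 RPKM. The ranges over all times overlapped, but within each time the sum was highest in BF. Most of that sum was FDX1, which liver also expresses, at 21.17 to 57.55 RPKM. CYP17A1 was at 0.78 to 16.94 RPKM, with its highest value in BA at 24 h and 3.43 RPKM in BF at 12 h. The part of the adrenal markers in the AKR1B7 values was not tested. Intestinal markers (6 of 8 found) summed to 292.69 to 409.62 RPKM in BF, 218.73 to 715.0 in Control and 197.85 to 353.48 in BA, mostly APOA4. FABP2, VIL1, SI and ALPI were each highest in BF at 24 h, the column where AKR1B7 was highest, at 23.83, 1.29, 1.14 and 0.22 RPKM. APOA4 and CDX2 were highest in Control, at 713.34 RPKM at 4 h and 0.33 RPKM at 12 h. The intestinal sum in BF was lowest at 24 h, at 292.69 RPKM, against 218.73 in Control and 197.85 in BA at that time. The part of the intestinal markers in the AKR1B7 value was not tested.

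AKR1C21 followed a different course. In BF its level was 359.37, 108.59, 32.8 and 412.37 RPKM at 0, 4, 12 and 24 h. In Control it was 35.5, 28.1, 76.64 and 235.93 RPKM, and in BA 68.58, 21.96, 179.71 and 253.29 RPKM. BF was highest of the groups at 0, 4 and 24 h and lowest at 12 h. The log2 difference of BF from Control was 3.30, 1.91, -1.20 and 0.80, and from BA 2.37, 2.25, -2.42 and 0.70. BF was thus 10.1 times Control at 0 h and 3.86 times at 4 h, whereas at 12 h Control was 2.34 times and BA 5.48 times BF. From 0 to 12 h AKR1C21 went in opposite directions, with log2 differences of 1.09 in Control, 1.38 in BA and -3.41 in BF. The BF column at 12 h is the one with the pancreatic enzymes.

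The share of AKR1C21 among genes with symbols starting with AKR1C also varied between columns. These 8 genes, AKR1CL1 and AKR1CL2 among them, summed to 608.46 to 1866.1 RPKM in BF, 706.68 to 1972.4 in Control and 423.65 to 1214.2 in BA. AKR1C21 was 19.3%, 12.1%, 5.39% and 27.6% of that sum in BF. Its share was 1.80%, 2.29%, 10.9% and 19.8% in Control and 5.78%, 5.18%, 29.3% and 20.9% in BA. AKR1C14, a liver 3-alpha-hydroxysteroid dehydrogenase that reduces steroid and bile acid intermediates, was the highest of the 8 in 11 columns, the exception being BA at 4 h, where AKR1C13 was. AKR1C14 itself was at 742.45, 486.29, 366.64 and 729.03 RPKM in BF. It was at 886.05, 678.32, 438.27 and 621.38 RPKM in Control and 545.16, 151.37, 267.91 and 623.55 RPKM in BA. BF was thus below Control at 0, 4 and 12 h and above it at 24 h, and BA was the lowest group at 0, 4 and 12 h.

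**Figure D2:**
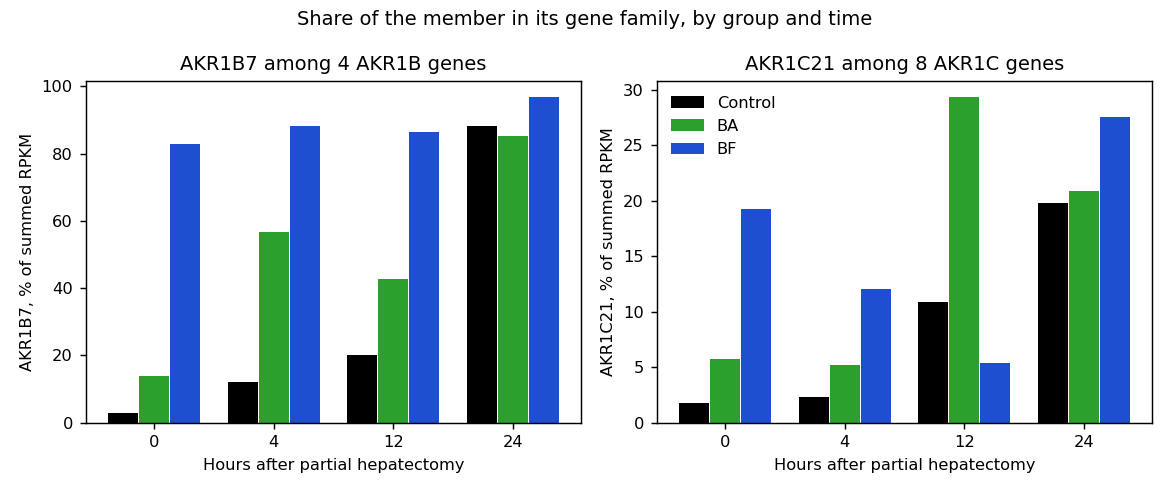
Share (%) of the summed RPKM of the AKR1B genes held by AKR1B7, for each group and time, from 1 column each. The share held by AKR1C21 is of genes with symbols starting with AKR1C, including AKR1CL1 and AKR1CL2. The AKR1B7 share in BF was 82.8% to 96.7%, and the AKR1C21 share in BF was lowest at 12 h, at 5.39%.

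DHRS7 was lower at 24 h than at 0 h in every group, by the most in BF. In BF it was at 196.06, 80.18, 22.07 and 4.47 RPKM at 0, 4, 12 and 24 h. In Control it was at 218.51, 178.59, 139.19 and 80.85 RPKM, and in BA at 161.53, 60.1, 153.05 and 110.36 RPKM. At 0 h BF lay between BA and Control, and at 4 h BA was the lowest. At 12 and 24 h BF lay below all Control and BA columns of any time. The log2 difference of BF from Control was -0.16, -1.15, -2.60 and -3.90, and from BA 0.28, 0.41, -2.74 and -4.35. At 24 h Control was 18.1 times and BA 24.7 times BF, and only 1 gene of 8459 was further below in each comparison. From 0 to 24 h the log2 difference was -1.42 in Control, -0.55 in BA and -5.17 in BF. DHRS7B, a related SDR of the peroxisome and endoplasmic reticulum that makes ether lipid precursors, gave no such picture, with 41.04, 38.05 and 40.86 RPKM in Control, BA and BF at 24 h.

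ADH6 was the least abundant member and the most irregular. In BF it was at 0.01, 12.57, 0.15 and 0.09 RPKM at 0, 4, 12 and 24 h. In Control it was at 3.74, 4.62, 0.44 and 19.43 RPKM, and in BA at 7.85, 8.83, 3.28 and 0.04 RPKM. Its highest level at 4 h was in BF, and its low level at 24 h was shared by BF and BA. The log2 difference of BF from Control was -2.23, 1.27, -0.32 and -4.23, and from BA -3.13, 0.47, -1.90 and 0.068. At 4 h BF was 2.72 times Control and 1.42 times BA. Values this close to 0 give no usable fold, since the number of reads behind an RPKM below 1 is unknown. ADH1, the main ethanol-oxidising enzyme of liver, was the highest of the 6 ADH genes in every column, at 217.33 to 2327.66 RPKM, and ADH6 was at most 2.08% of their sum. ADH6A, the neighbouring copy, was at or below 0.10 RPKM throughout.

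**Figure D3:**
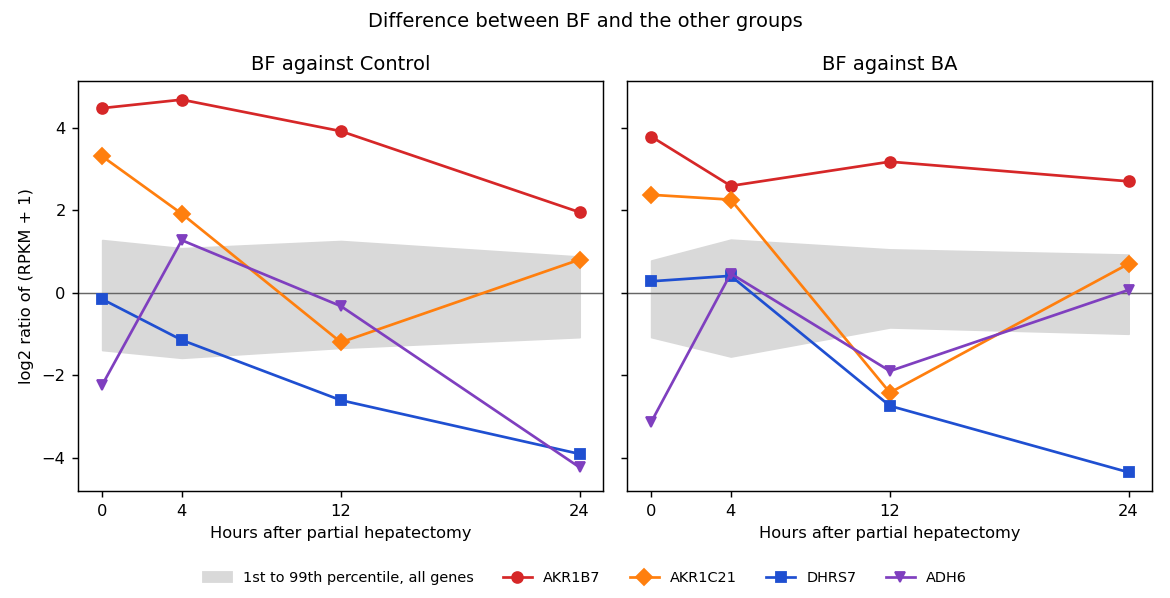
Difference of BF from Control (left) and from BA (right) as log2 ratio of RPKM + 1 for each gene against hours after PH, with a grey band from the 1st to the 99th percentile of all 8459 genes and no error bars. AKR1B7 was above the band at all times in both panels, and DHRS7 was below it at 12 and 24 h, reaching -3.90 and -4.35.

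With a log2 difference of at least 1 taken as a call (a size, not a test), the members can be counted against all genes. Against Control at 0 h, 2 members were higher in BF, where 1.73% of all genes were, and 1 was lower, where 2.16% were. At 4 h 3 were higher (1.19% of all genes) and 1 lower (3.16%). At 12 h 1 was higher (1.84%) and 2 lower (1.68%), and at 24 h 1 was higher (0.768%) and 2 lower (1.31%). Against BA, 2 were higher at 0 h (0.426%) and 1 lower (1.39%), and at 4 h 2 were higher (2.39%) and none lower (2.33%). At 12 h 1 was higher (1.16%) and 3 lower (0.757%), and at 24 h 1 was higher (0.887%) and 1 lower (0.969%). The members were named for these contrasts, so nothing is read from the counts.

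Past that size from both other groups at all 4 times there were 3 genes of 8459 (0.0355%), namely AKR1B7, CYP7A1 and CYP8B1, the last being the sterol 12-alpha-hydroxylase that directs bile acid synthesis to cholic acid. CYP8B1 was at 1576.23, 918.53, 766.56 and 1009.76 RPKM in BF and between 110.18 and 189.67 RPKM in the other 8 columns. At 0 and 4 h 6 genes were above both groups (0.0709%), AKR1C21 among them, with AKR1B7, CYP7A1, CYP8B1, G6PC and TOR3A. Below both at 12 and 24 h there were 2 genes (0.0236%), DHRS7 and MT2A, a metal-binding stress protein. MT2A was at 205.92 and 126.56 RPKM in BF at those times against 1663.1 and 325.22 RPKM in Control. The times of these sets were chosen with earlier results known and match where AKR1B7, AKR1C21 and DHRS7 differed. Nothing is therefore read from the place of these members in the sets or from the small shares.

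The wider families were read from 4 lists of 149 symbols, of which 102 were in the table and 81 averaged 1 RPKM or more (15 AKR, 43 SDR, 14 ADH, 9 ALDH). Beyond ADH1, ADH4, ADH5, ADH6 and ADH7, the ADH list held ADHFE1 (iron-containing), SORD, CRYZ, VAT1, ZADH2, PTGR1, PTGR2, MECR and RTN4IP1. The SDR list also held HADH, an L-3-hydroxyacyl-Coenzyme A dehydrogenase. These lists are therefore wider than the families they are named for. At 0 h 3 of the 81 were higher in BF than in Control and 8 lower, 3.70% and 9.88%, and the median difference was -0.21 against -0.18 over all genes. At 4 h 4 were higher and 8 lower (4.94% and 9.88%) with a median of -0.27, against -0.067 over all genes. At 12 h 11 were higher and 6 lower (13.6% and 7.41%) with a median of 0.11 against -0.069 over all genes, and at 24 h 4 and 4 (4.94% each) with a median of -0.043 against -0.11. Over all genes the shares were 1.73% higher and 2.16% lower, 1.19% and 3.16%, 1.84% and 1.68%, and 0.768% and 1.31%. Without the 4 members the comparisons with Control gave 1 higher and 7 lower, 1 and 7, 10 and 4, and 3 and 2 of 77 genes. Against BA 3 were higher and 2 lower at 0 h (3.70% and 2.47%, against 0.426% and 1.39% of all genes), and 12 and 1 at 4 h (14.8% and 1.23%, against 2.39% and 2.33%). At 12 h 9 were higher and 4 lower (11.1% and 4.94%, against 1.16% and 0.757%), and at 24 h 4 and 3 (4.94% and 3.70%, against 0.887% and 0.969%). Without the members the counts against BA were 1 higher and 1 lower, 10 and 1, 8 and 1, and 3 and 2 of 77 genes. The medians against BA, members included, were 0.20, 0.30, 0.21 and 0.10, beside -0.076, 0.15, -0.014 and 0.059 over all genes. The BA column at 4 h is the one dominated by albumin. The side with more genes, relative to Control, was thus not the same at all times.

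**Figure D4:**
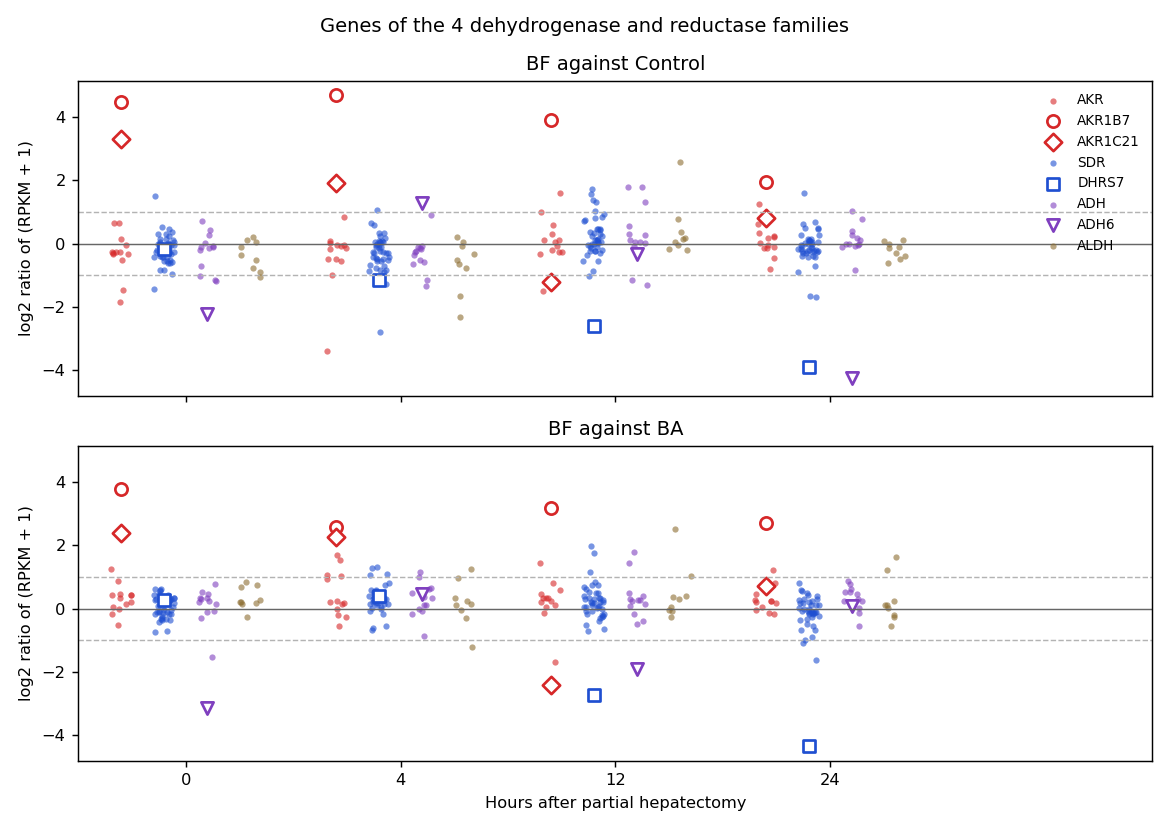
Difference of BF from Control and from BA (log2 ratio of RPKM + 1) for each listed gene averaging 1 RPKM or more, by list and time. Dashed lines stand at differences of 1 and -1, and there are no error bars. Most of the 81 genes lay between the lines, while AKR1B7 lay above the upper line at every time, reaching 4.68, and DHRS7 reached -4.35 at 24 h against BA.

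Outside the members, the AKR gene highest in BF by the naming rule was AKR1D1, the 5-beta-reductase of bile acid synthesis. AKR1D1 was at 1265.05, 573.48, 414.23 and 965.76 RPKM in BF against 810.99, 594.06, 135.68 and 402.88 in Control and 694.35, 655.8, 150.95 and 410.08 in BA. It was above both at 0, 12 and 24 h, and its differences from Control were 0.64, -0.05, 1.60 and 1.26. HSD17B7, an SDR of cholesterol synthesis, was above Control in BF by 1.49, 1.05, 0.92 and 1.59 but below BA at 0 h. In BA HSD17B7 was also above Control at every time, at 50.88, 18.77, 16.32 and 28.67 RPKM against 13.65, 11.61, 13.07 and 11.23. NSDHL, a further step of that pathway, was above Control by 0.37, 0.58, 0.72 and 0.49. At 0 h NSDHL was lower in BF than in BA, at 358.07 against 396.32 RPKM, and BA too was above Control at 0, 12 and 24 h. HSD17B13, a lipid droplet protein, differed from Control by 0.0031, -0.051, 1.02 and 0.63. ADH4 differed from Control by 0.26, -0.36, 1.78 and 1.03, and ADH7 by 0.44, -0.15, 1.32 and 0.40. Their largest differences from Control were at 12 h, in the BF column with the pancreatic enzymes. Their highest levels were in BF at 24 h, at 39.64 and 44.94 RPKM. At 12 h ADH4 was at 17.14 RPKM in BF, 12.85 in BA and 4.28 in Control, and ADH7 at 22.57, 7.74 and 8.41 RPKM. ADH7 was also below BA at 4 h, by -0.87. ALDH9A1 was within 0.52 of Control at every time.

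On the low side all genes that met the naming rule were SDR. RDH2, a liver retinol dehydrogenase, was below both groups in BF at 4 of 4 times, with 84.04, 262.48, 124.37 and 34.07 RPKM against 110.55, 465.91, 254.41 and 110.22 in Control and 138.63, 380.65, 180.06 and 107.02 in BA. HSD11B1, which regenerates active glucocorticoid, was likewise below both at every time, at 428.8, 375.51, 380.94 and 177.5 RPKM. Its differences from Control were -0.61, -0.87, -0.36 and -0.88. In BA it was at 447.6, 572.23, 591.5 and 351.65 RPKM, close to BF at 0 h. KDSR, of sphingolipid synthesis, was below Control by -0.27, -0.82, -0.85 and -0.22. At 0 and 24 h KDSR was at 12.35 and 11.64 RPKM in BF, close to 12.79 and 13.27 in BA. None of these 3 approached the drop of DHRS7, whose level at 24 h fell by 3.90 on the log2 scale relative to Control.

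The genes whose levels followed each member most closely were ranked by Pearson r of log2(RPKM + 1) over the 12 columns, which share their groups and times, so r is a description. AKR1B7 was followed by FEM1B (0.89), SSBP4 (0.88), TFPI, an inhibitor of clotting (0.88), UBXD4 (0.87) and DAP3 (0.86). AKR1C21 was followed by CD63, a tetraspanin of late endosomes (0.92), LPIN3 (0.86), HELZ (0.86), GALNS (0.86) and GTF2H5 (0.85). DHRS7 was followed by CREBL2 (0.82), UBE2Q1 (0.81), OBP3, an alpha-2u globulin (0.79), HSD11B1 (0.79) and STS, which removes sulfate from steroids (0.79). ADH6 was followed by ATF3, a stress-induced transcription factor (0.82), HES1 (0.77), POLR3E (0.76), LRP12 (0.75) and CDC42EP1 (0.75). Between members r was 0.65 for AKR1B7 with AKR1C21, -0.73 for AKR1B7 with DHRS7 and -0.26 for AKR1B7 with ADH6. It was -0.21 for AKR1C21 with DHRS7, -0.31 for AKR1C21 with ADH6 and 0.28 for DHRS7 with ADH6. By Spearman rho the value for DHRS7 with ADH6 was -0.077. AKR1B7, DHRS7 and ADH6 were chosen for their levels in BF, so nothing is read from these values. With the mean of each time subtracted, the closest to AKR1B7 were TFPI (0.97), TSPAN33 (0.96), SLC1A2 (0.96), CYP8B1 (0.93) and CYP7B1 (0.92). The closest was CSNK1A1 (0.94) for AKR1C21, IRAK1 (0.92) for DHRS7 and LOH12CR1 (0.94) for ADH6. Subtracting the time means leaves only differences between groups. AKR1B7 was chosen for such a difference, so nothing is read from the genes close to it.

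In bulk liver, fewer cells of a type and less RNA per cell cannot be told apart, and with 1 column per group and time no difference above could be set against a spread between animals. The order of groups for a gene is therefore that of the columns alone.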

How the data were processed

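RNA from whole rat liver was sequenced from poly(A)-selected libraries, with CASAVA, Bowtie 0.12.2 and the builds rn4 and mm8 named in the submitters' processing notes without a role. The counting is not given in the sources used here. The authors deposited 1 RPKM value per gene and column (reads scaled to transcript length and library size), described as an average of RPKM over 4 animals. Since 3 of these were pooled into 1 of the 2 runs, the weight of each run is unclear. Of 14692 genes, 1 had no value, 2303 were at 0 throughout, and the 8459 averaging 1 RPKM or more were compared. Differences are log2 ratios of RPKM + 1, with 1 or more as a call. With no replicate there was no test, p-value or SD, and depth is unknown. The members, lists and rules were chosen with earlier results of these data known. Genes named were the members, up to 3 highest and 3 lowest per family list on one side of both groups at 3 or more of 4 times, and the 5 most correlated with each member. AKR7A3 and HSD17B2 were chosen after their values were seen. Promoters came from RefSeq (GRCr8), and protein sequences were not used here. Alternatives were a pseudocount of 0.1, rescaling on the median gene and leaving out a time. Calculations used Python 3.11.15, numpy 2.4.6, pandas 2.3.3 and matplotlib 3.10.9, and were tested on simulated data.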

Additional observations from a re-analysis of the deposited data

Results flagged for a closer look

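The values here were picked out because the direction of a difference was opposite between times or groups. Each rests on 1 column per group and time, and the difference between directions was not tested.

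AKR1C21 went up from 0 to 12 h by a log2 difference of 1.09 in Control and 1.38 in BA, against -3.41 in BF. Its difference of BF from Control was 3.30 at 0 h, 1.91 at 4 h, -1.20 at 12 h and 0.80 at 24 h. From BA it was 2.37, 2.25, -2.42 and 0.70. Of these, the negative values came from the BF column at 12 h, where CTRB1 was at 84.71 RPKM, and its part was not tested.

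DHRS7 in BF was close to BA early and far below it later, with differences of 0.28 at 0 h, 0.41 at 4 h, -2.74 at 12 h and -4.35 at 24 h.

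By sign alone, ADH6 changed sides most often. From 0 to 12 h its log2 difference was -1.72 in Control, -1.05 in BA and 0.19 in BF, and from 0 to 24 h it was 2.11, -3.09 and 0.11. Its difference of BF from Control was -2.23 at 0 h, 1.27 at 4 h, -0.32 at 12 h and -4.23 at 24 h. From BA it was -3.13, 0.47, -1.90 and 0.068. ADH6 in BF was at 0.01, 0.15 and 0.09 RPKM at 0, 12 and 24 h, and in BA at 0.04 RPKM at 24 h. The differences of 0.19, 0.11 and 0.068 thus lie between values near 0, and their sign is not read as a reversal.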

How the results depend on the processing

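No alternative turned the sign of a called value. With a pseudocount of 0.1 RPKM the mean log2 difference of BF from Control over the 4 times became 4.69 for AKR1B7 (3.75 with 1 RPKM) and -2.87 for ADH6 (-1.38), and that of ADH6 from BA became -2.25 (-1.12). After rescaling the columns on the median gene, listed genes lower in BF than Control at 0 h numbered 4 in place of 8, and those lower than BA at 4 h 2 in place of 1. Leaving out 12 h gave AKR1C21 means of 2.01 against Control (1.20 with it) and 1.78 against BA (0.73). Chosen after seeing the data, leaving out 12 h gave 47 genes below both groups at the remaining late time, and leaving out 4 h gave means of -2.27 for DHRS7 against BA (-1.60 with it) and -2.26 for ADH6 against Control. The other 33 of 40 alternative values moved by less than a factor of 1.5 in the RPKM ratio itself, among them the AKR1C21 mean against BA, which was 0.22 without 4 h. The lists of 5 most similar genes were not stable: shared genes under Spearman rho, subtracted time means and rescaling were 3, 1 and 3 for AKR1B7, 3, 0 and 1 for AKR1C21, 0, 0 and 1 for DHRS7, and 2, 0 and 2 for ADH6. No paired analysis was possible because the columns carry no replicate numbers. The groups share only the 4 times, within which all differences were taken, and times are not replicates. The unknown number of reads limits ADH6 most, since 5 of its 12 values were below 1 RPKM.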

Other observations

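In AKR7A3, an aldehyde reductase that acts on aflatoxin products, Control stood apart from both fistula groups before and early after PH. AKR7A3 was at 126.75 and 66.15 RPKM in Control at 0 and 4 h, against 14.02 and 8.48 in BA and 34.69 and 5.46 in BF. At 12 h AKR7A3 was at 8.28, 3.88 and 6.35 RPKM in Control, BA and BF. At 24 h Control was again the highest, at 52.01 RPKM against 24.9 in BA and 29.62 in BF.

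HSD17B2, which inactivates estradiol and testosterone, was at 809.93 and 313.61 RPKM in Control at 0 and 4 h. HSD17B2 was at 245.37 and 17.97 RPKM in BA and 300.12 and 45.03 RPKM in BF at those times. At 12 h HSD17B2 in Control was at 6.83 RPKM, below the 19.18 RPKM of BF. At 24 h Control was again the highest, at 169.62 RPKM against 109.71 in BA and 51.64 in BF.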
